A study of Arabidopsis thaliana with 21 samples.

Results

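The genes described here are 10 regulators of lateral root initiation in Arabidopsis thaliana, picked by name from the 32833 genes of a root RNA-seq count table. They are the LATERAL ORGAN BOUNDARIES DOMAIN genes LBD16 (AT2G42430), LBD18 (AT2G45420) and LBD29 (AT3G58190), the transcription factor genes GATA23 (AT5G26930), PUCHI (AT5G18560) and LRP1 (AT5G12330), the PLETHORA genes PLT5 (AT5G57390) and PLT7 (AT5G65510), the receptor kinase gene ACR4 (AT3G59420) and MAKR4 (AT2G39370). Each of the 10 passed the filter on low counts and was among the 19938 genes tested. The 10 were chosen with earlier results of these data known. Poly-A RNA of roots was sequenced in 21 libraries of 7 groups with 3 libraries each. Roots treated with AtCEP5, a peptide of the C-TERMINALLY ENCODED PEPTIDE family, were taken at 6, 12 and 24 h, mock-treated roots at the same 3 times, and untreated roots at 0 h, called before treatment here. The labels give no genotype, plant age or peptide dose, and nothing in them says that the 3 libraries of a group came from separate cultures, so p-values measure the spread between these libraries, which may be technical.

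Lateral roots of Arabidopsis arise from founder cells in the pericycle, the outermost layer of the stele. Auxin releases the factors ARF7 and ARF19 from Aux/IAA repressors such as IAA14, and these factors switch on LBD16, LBD18 and LBD29, while GATA23 acts earlier, in founder cell identity, downstream of IAA28. PUCHI, LRP1, the PLETHORA factors and ACR4 are used as the founder cells divide and a primordium takes shape. CEP peptides are perceived by receptor kinases of the CEPR type, and AtCEP5 is known to reduce lateral root initiation in Arabidopsis.

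The libraries held 10334319 to 14345476 counts, and the 10 genes together took 327 to 728 of them in a library, with 4 to 258 counts for a gene in a library. Such low counts limit the precision of every fold change given here. Counts of ribosomal RNA genes made up 2.20% of mock 6 h replicate 2 and 1.96% of AtCEP5 12 h replicate 3, against 0.270% to 0.601% of the other 19 libraries. Before treatment replicate 3 held 38.0 CPM (counts scaled for library size) of the leaf gene LHCB1.1, and no other library exceeded 0.890 CPM. The labels call the cells root meristem cells. The meristem markers PLT1, PLT2, WOX5, SCR and SHR were detected in every library, and so were markers of mature root tissue such as XCP1 of xylem vessels and CASP1 of the endodermis, with at least 755 and 787 counts. The libraries thus held RNA of differentiated root as well as of the meristem.

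Every one of the 10 genes was weakly expressed. Per unit of length, on the FPKM scale (fragments scaled for gene length and library size), MAKR4 averaged 4.99 ± 0.940, LRP1 4.60 ± 1.31 and LBD16 4.30 ± 0.826 (SD over 21 libraries). GATA23 followed with 3.47 ± 2.46 FPKM, the widest spread of the 10. LBD29 averaged 2.71 ± 0.917 FPKM, PUCHI 2.22 ± 0.702 FPKM and LBD18 1.81 ± 0.626 FPKM. The lowest were ACR4 with 1.21 ± 0.370 FPKM, PLT5 with 1.03 ± 0.446 FPKM and PLT7 with 0.651 ± 0.228 FPKM. Neighbours in this order differed by less than the larger of their SDs over the libraries. MAKR4 had a higher mean FPKM than 32.8% of the genes tested and PLT7 than 4.87%. In RNA of mixed root tissue, fewer cells of a type and less RNA per cell cannot be told apart.

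**Figure D1:**
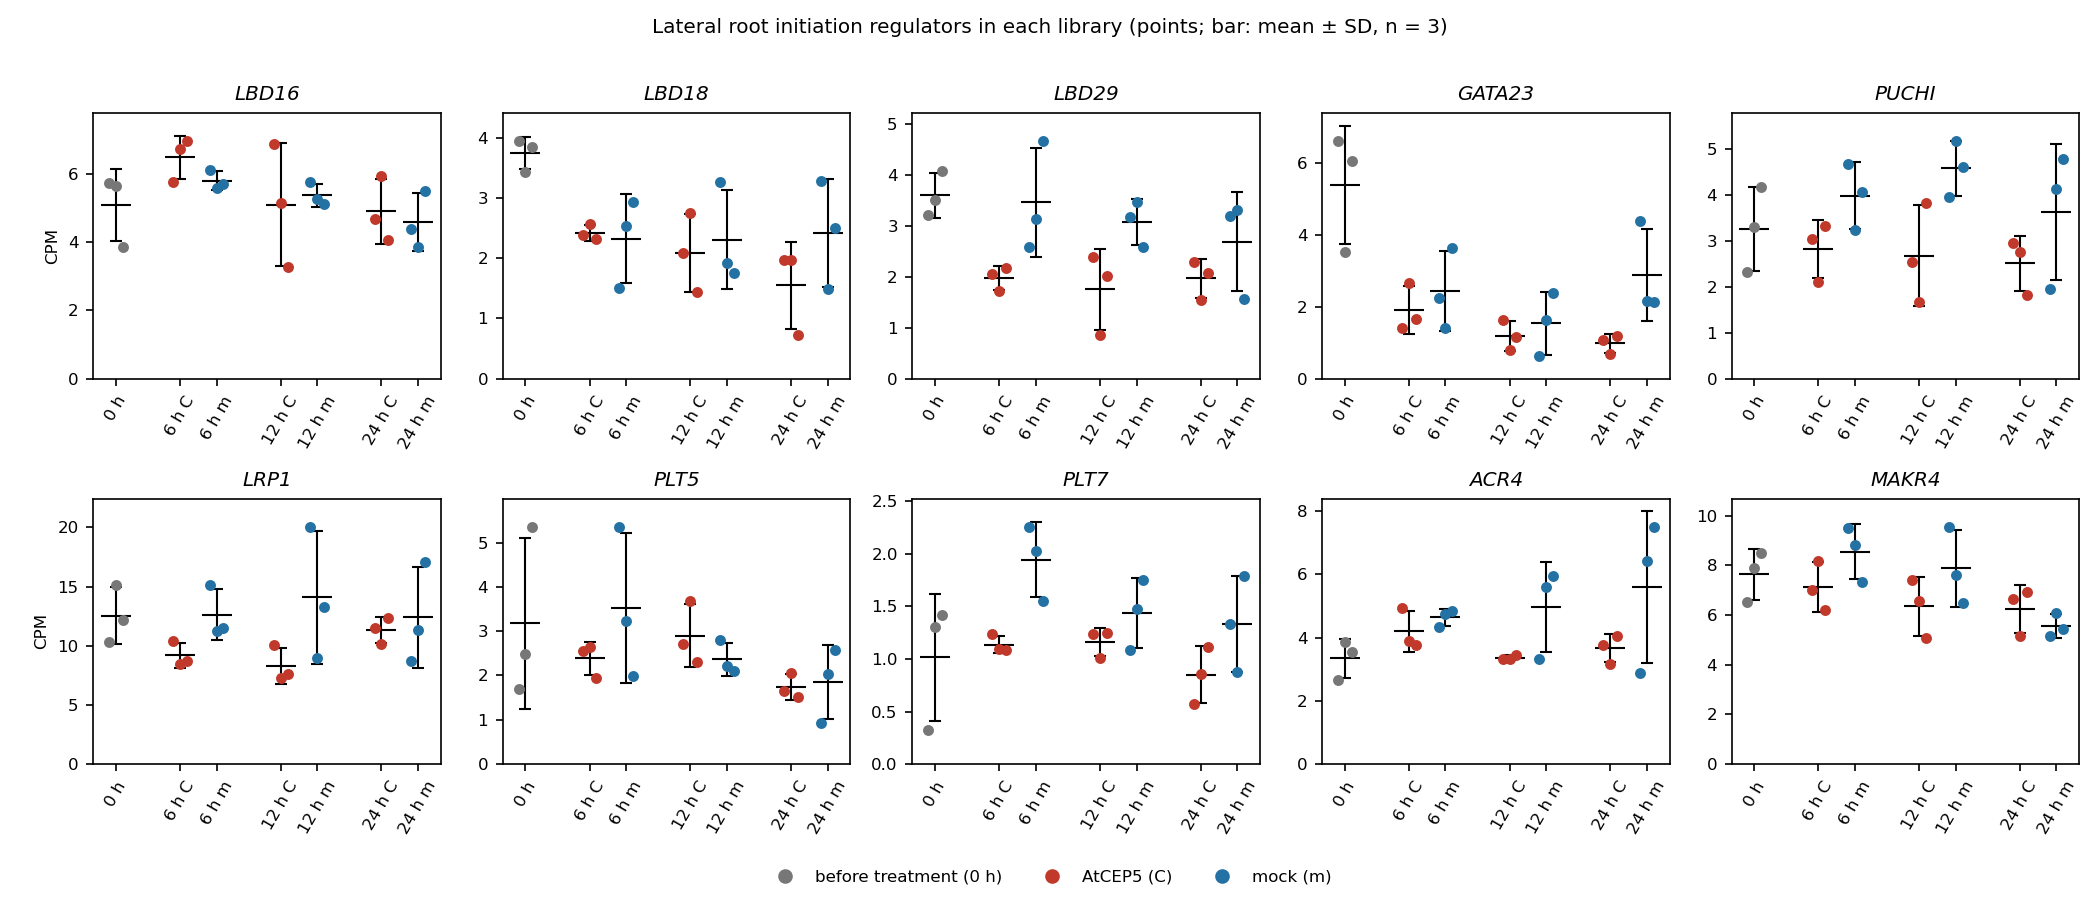
Level of each of the 10 genes in CPM (vertical axis) in every library, by time after treatment in hours, with a point per library and bars for the mean ± SD of each group of 3 (C, AtCEP5; m, mock). GATA23 was highest before treatment, and LBD29 lay at 0.867 to 2.39 CPM in the AtCEP5 libraries, against 1.57 to 4.67 CPM in the mock libraries.

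The first comparison set AtCEP5-treated roots against mock-treated roots. Averaged over the 3 times, LBD29, GATA23, PUCHI, LRP1 and ACR4 fell and none of the 10 rose, at an adjusted p under 0.05 in edgeR's quasi-likelihood test. DESeq2 also called 5 genes lower, and limma on log2(FPKM + 1) called 2, LBD29 and PUCHI. With limma the adjusted p at a pseudocount of 1 or 0.1 was 0.0507 or 0.0568 for GATA23, 0.0725 or 0.0727 for LRP1 and 0.121 or 0.158 for ACR4. These 5 of 10 genes called lower stand beside 15.5% of all genes tested called lower in the averaged comparison, and 30.3% called in either direction. By time, 0 of 10 genes passed at 6 h, 0 of 10 at 12 h and 1 of 10, GATA23, at 24 h, where 11.3%, 12.1% and 7.81% of all genes tested passed and, at 24 h, 4.12% were called lower. Beside the 0 counts, 1 gene at 6 h and 3 genes at 12 h were lower at an unadjusted p under 0.05, and DESeq2 called 0 genes at 6 h and 1 gene, LRP1, at 12 h, while limma called 0 at both times. The median log2 fold change of the 10 genes was -0.41 at 6 h, -0.35 at 12 h, -0.49 at 24 h and -0.45 for the average. Over all genes tested these medians were 0.01, -0.02, -0.00 and -0.00. The 10 genes were chosen with earlier results of these data known, so these shares and medians describe the list and test nothing about it. Groups whose 3 libraries all lay below the 3 mock libraries were found for LBD29, LRP1 and PLT7 at 6 h, LBD29 and PUCHI at 12 h and GATA23 at 24 h, and for 16.1%, 16.5% and 11.2% of all genes tested at these times.

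Marker genes of root tissues also differed between AtCEP5 and mock. The summed level of the phloem markers SUC2 and APL ran from 42.1 to 64.9 CPM in the 9 AtCEP5 libraries and from 16.0 to 39.7 CPM in the 9 mock libraries. That of the stele and pericycle markers SKOR and PHO1 was 347 to 576 CPM in AtCEP5 libraries and 232 to 368 CPM in mock libraries. Taken by time, the stele and pericycle sums were separate at 6 h, at 407 to 438 CPM with AtCEP5 and 241 to 289 CPM with mock. They were also separate at 12 h, at 443 to 488 CPM with AtCEP5 and 278 to 368 CPM with mock, and overlapped at 24 h. The 5 meristem markers summed to 77.8 to 95.3 CPM in AtCEP5 libraries, against 69.6 to 112 CPM in mock libraries. The root hair markers COBL9 and EXPA7 were lower with AtCEP5, with a mean sum of 62.6 CPM at 6 h, 65.4 CPM at 12 h and 69.0 CPM at 24 h, against 97.1, 78.9 and 91.2 CPM with mock. The root hair sums did not overlap at 6 h, where AtCEP5 libraries reached 73.0 CPM and mock libraries began at 86.6 CPM, or at 12 h, where these limits were 69.5 and 74.5 CPM, and they overlapped at 24 h. The root cap markers SMB, BRN1 and BRN2 also had lower means with AtCEP5, at 27.7, 23.8 and 23.6 CPM at 6, 12 and 24 h, against 32.3, 28.9 and 25.8 CPM with mock, and were separate at 6 h. The endodermis, xylem and shoot markers overlapped over the 9 libraries of each treatment, at 89.8 to 152, 75.1 to 119 and 73.7 to 151 CPM with AtCEP5 and 92.3 to 171, 86.8 to 109 and 53.9 to 132 CPM with mock. Taken by time, the shoot sums were separate at 12 h, at 87.3 to 151 CPM with AtCEP5 and 59.6 to 84.2 CPM with mock. They were separate in the other direction at 24 h, at 88.4 to 99.7 CPM with AtCEP5 and 101 to 132 CPM with mock. At 6 h the shoot sums overlapped. None of the 21 markers was at 0 in all 3 libraries of any group. The part of these differences in the results for the 10 genes was not tested.

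Among the LBD factors LBD29 differed between treatments, and LBD16 and LBD18 did not pass. LBD29, which acts with LBD16 downstream of ARF7 and ARF19 to start founder cell division, lies at chr3:21548484-21549572 on the minus strand of TAIR10.1. At 6 h LBD29 had 2.06, 1.72 and 2.17 CPM in AtCEP5 libraries, against 2.59, 3.14 and 4.67 CPM in mock libraries. At 12 h it had 2.39, 0.867 and 2.01 CPM with AtCEP5, against 3.18, 3.47 and 2.59 CPM with mock. At 24 h it had 2.30, 1.55 and 2.07 CPM with AtCEP5 and 3.20, 3.32 and 1.57 CPM with mock. The groups were separate at 6 and 12 h and overlapped at 24 h through mock replicate 3. Of the 27 pairs of an AtCEP5 and a mock library of the same time the AtCEP5 library was lower in 25. Each library stands in several of these pairs, so they are not separate observations, and the share of all genes was not computed. The log2 fold change of LBD29 was -0.80 ± 0.34 (SE) at 6 h, -0.82 ± 0.35 at 12 h and -0.45 ± 0.35 at 24 h, with adjusted p of 0.144, 0.139 and 0.545. The average over the times was -0.69 ± 0.20, a fold of 0.620, with an adjusted p of 0.0112.

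LBD16 moved least of the 3 LBD genes. It had 5.76, 6.71 and 6.94 CPM in AtCEP5 libraries at 6 h, against 6.10, 5.57 and 5.70 CPM in mock libraries, and the groups overlapped at every time. Its averaged log2 fold change was 0.06 ± 0.14, with a 95% interval from -0.23 to 0.36 and an adjusted p of 0.776. A decrease of the size seen for LBD29 lies outside that interval. LBD18, a relative that acts in primordium growth and emergence, had an averaged log2 fold change of -0.23 ± 0.22 (95% interval -0.70 to 0.24, adjusted p = 0.466). Its largest difference was at 24 h, with 1.97, 1.98 and 0.717 CPM in AtCEP5 libraries and 3.28, 1.49 and 2.50 CPM in mock libraries, which overlapped (adjusted p = 0.400).

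GATA23, which marks pericycle cells that become founder cells, lies at chr5:9479424-9480200 on the plus strand. At 6 h it had 1.40, 2.65 and 1.66 CPM in AtCEP5 libraries and 2.26, 1.42 and 3.63 CPM in mock libraries. At 12 h the values were 1.62, 0.795 and 1.15 CPM with AtCEP5 and 0.621, 1.63 and 2.38 CPM with mock. At 24 h they were 1.07, 0.688 and 1.20 CPM with AtCEP5 and 4.37, 2.17 and 2.14 CPM with mock. The groups overlapped at 6 and 12 h and were separate at 24 h, when mock replicate 1 stood highest. The log2 fold change of GATA23 was -0.36 ± 0.45 at 6 h (adjusted p = 0.678), -0.39 ± 0.48 at 12 h (adjusted p = 0.675) and -1.54 ± 0.47 at 24 h, a fold of 0.345 (adjusted p = 0.0475). The call at 24 h was lost without any of the 3 AtCEP5 libraries or without mock replicate 1 or 2, with adjusted p between 0.0542 and 0.231, and the log2 fold change without mock replicate 1 was -1.12. The average over times was -0.76 ± 0.27 (fold 0.590, adjusted p = 0.0360), and its call was lost without AtCEP5 6 h replicate 1 or 3, AtCEP5 12 h replicate 2 or 3, AtCEP5 24 h replicate 1 or 2, mock 6 h replicate 3, mock 12 h replicate 2 or 3, or mock 24 h replicate 1, with adjusted p between 0.0548 and 0.119.

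PUCHI encodes an AP2/ERF factor that restricts cell divisions at the flanks of the primordium and lies at chr5:6164526-6166040 on the minus strand. At 12 h PUCHI had 2.55, 1.66 and 3.84 CPM in AtCEP5 libraries, against 3.96, 5.17 and 4.62 CPM in mock libraries. At 6 h it had 3.04, 2.11 and 3.33 CPM with AtCEP5 and 4.68, 3.24 and 4.06 CPM with mock. At 24 h it had 2.95, 2.75 and 1.83 CPM with AtCEP5 and 1.95, 4.13 and 4.79 CPM with mock. Only the 12 h groups were separate, and the AtCEP5 library was lower in 24 of the 27 pairs. That count was also 24 for PLT7, whose average was not called, and was lowest for LBD16, at 9. None of the 3 times passed, with log2 fold changes of -0.50 ± 0.34, -0.79 ± 0.33 and -0.54 ± 0.34 and adjusted p of 0.389, 0.134 and 0.424 at 6, 12 and 24 h. The average of PUCHI was -0.61 ± 0.19, a fold of 0.655 (adjusted p = 0.0203). The averaged calls of LBD29 and PUCHI held in all 27 alternative analyses that were run, which left out each of the 18 treated libraries in turn and changed scaling, filter, model or test.

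The stretches upstream of LBD29, PUCHI and GATA23 are printed because these 3 genes had the lowest averaged log2 fold changes of the 10. Each line holds the 300 bases before the annotated gene start in the RefSeq TAIR10.1 genome, 5′ to 3′ on the strand of the gene: chr3:21549573-21549872 (minus strand) for LBD29, chr5:6166041-6166340 (minus strand) for PUCHI and chr5:9479124-9479423 (plus strand) for GATA23. Capitals mark 2 auxin response elements, the classical form TGTCTC and the high-affinity form TGTCGG, searched on both strands. A match on the opposite strand appears as its reverse complement, and matches of the 2 forms were counted separately even where they overlapped.
LBD29: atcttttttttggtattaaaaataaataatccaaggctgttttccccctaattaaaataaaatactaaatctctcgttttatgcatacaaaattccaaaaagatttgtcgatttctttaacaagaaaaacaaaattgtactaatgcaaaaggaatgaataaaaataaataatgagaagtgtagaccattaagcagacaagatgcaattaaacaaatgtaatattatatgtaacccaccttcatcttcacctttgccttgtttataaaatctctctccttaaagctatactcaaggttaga
PUCHI: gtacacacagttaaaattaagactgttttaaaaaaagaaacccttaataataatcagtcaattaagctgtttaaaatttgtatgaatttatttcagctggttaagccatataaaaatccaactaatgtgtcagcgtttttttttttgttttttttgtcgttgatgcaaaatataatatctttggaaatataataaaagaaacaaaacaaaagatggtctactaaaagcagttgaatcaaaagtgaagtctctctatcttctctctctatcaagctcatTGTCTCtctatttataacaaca
GATA23: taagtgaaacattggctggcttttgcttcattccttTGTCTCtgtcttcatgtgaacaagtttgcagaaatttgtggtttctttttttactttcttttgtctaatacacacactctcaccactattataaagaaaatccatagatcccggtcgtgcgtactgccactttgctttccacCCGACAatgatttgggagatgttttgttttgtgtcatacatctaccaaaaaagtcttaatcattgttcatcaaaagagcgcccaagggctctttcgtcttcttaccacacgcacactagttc
GATA23 held the classical form at 264 bases and the high-affinity form, on the opposite strand, at 122 bases before its start, and PUCHI held the classical form at 22 bases. LBD29 had neither in this window. Among the 10 genes, 4 held the classical form (GATA23, PUCHI, PLT7 and ACR4), 2 the high-affinity form (GATA23 and PLT5), 5 either and 5 neither. Of the 27443 windows of 300 bases before Arabidopsis genes, 13.0% held the classical form, 4.91% the high-affinity form and 17.3% either. These matches are a description of the letters in these windows, and no match says only that the letters are not there.

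LRP1, a primordium gene of the SHI/STY family of zinc-finger factors, was the most counted of the 10. At 6 h it had 10.4, 8.43 and 8.75 CPM in AtCEP5 libraries, against 15.1, 11.2 and 11.5 CPM in mock libraries. At 12 h it had 10.04, 7.30 and 7.58 CPM with AtCEP5, against 20.0, 8.94 and 13.3 CPM with mock. At 24 h it had 11.5, 10.15 and 12.4 CPM with AtCEP5, against 8.75, 11.4 and 17.1 CPM with mock. The groups were separate at 6 h and overlapped at 12 and 24 h. The log2 fold change of LRP1 was -0.46 ± 0.26 at 6 h (adjusted p = 0.283), -0.76 ± 0.26 at 12 h (adjusted p = 0.0563) and -0.13 ± 0.25 at 24 h (adjusted p = 0.856). Libraries with the same replicate number deviated together at 6 h, with correlations of 0.182, 0.117 and 0.241, though the labels do not say what a replicate number shares. A fit of those 6 libraries with the replicate as a block, chosen after seeing the data, gave LRP1 an adjusted p of 0.0437 at 6 h. The average was -0.45 ± 0.15, a fold of 0.732 (adjusted p = 0.0235). It was lost, with adjusted p of up to 0.0737, without AtCEP5 6 h replicate 2, AtCEP5 12 h replicate 2, AtCEP5 24 h replicate 2, mock 6 h replicate 1, mock 12 h replicate 1 or mock 24 h replicate 3. At 12 h the log2 fold change of LRP1 was -0.40 without mock replicate 1 and -0.97 without mock replicate 2, when it passed (adjusted p = 0.0144).

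The PLETHORA factors PLT5 and PLT7 act with PLT3 in the outgrowth and spacing of lateral root primordia. PLT7 had 1.23, 1.09 and 1.08 CPM in AtCEP5 libraries at 6 h, against 2.26, 2.03 and 1.56 CPM in mock libraries, and these groups were separate. Its AtCEP5 mean was below the mock mean at all 3 times and its averaged log2 fold change was -0.57 ± 0.25, which missed the threshold (adjusted p = 0.0836). PLT7 was also the least counted of the 10, with 4 to 27 counts in a library. PLT5 had 2.55, 2.65 and 1.95 CPM in AtCEP5 libraries at 6 h, against 5.35, 3.24 and 1.99 CPM in mock libraries. Its log2 fold change was -0.57 ± 0.41 at 6 h, 0.30 ± 0.41 at 12 h and -0.10 ± 0.43 at 24 h, and the average was -0.12 ± 0.24 (95% interval -0.64 to 0.39, adjusted p = 0.750).

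ACR4 encodes a receptor kinase that limits divisions of pericycle cells next to a founder cell. At 12 h it had 3.32, 3.33 and 3.45 CPM in AtCEP5 libraries, against 3.34, 5.62 and 5.94 CPM in mock libraries. At 24 h it had 3.77, 3.18 and 4.07 CPM with AtCEP5, against 2.89, 6.43 and 7.50 CPM with mock. Mock replicate 1 was the lowest mock library at both times and kept the groups overlapping. The log2 fold change of ACR4 was -0.15 ± 0.29 at 6 h, -0.56 ± 0.29 at 12 h and -0.61 ± 0.28 at 24 h, with adjusted p of 0.804, 0.227 and 0.224, and at 24 h it was -0.92 without mock replicate 1 (adjusted p = 0.0316). The average was -0.44 ± 0.16, a fold of 0.736 (adjusted p = 0.0460). This averaged call held without AtCEP5 6 h replicate 1, AtCEP5 24 h replicate 3, mock 12 h replicate 1 or mock 24 h replicate 1, and was lost without any other treated library, with adjusted p between 0.0585 and 0.111.

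MAKR4 belongs to a family of membrane-associated kinase regulators and is linked to the sites along the root where lateral roots later form. It had 6.99, 8.19 and 6.22 CPM in AtCEP5 libraries at 6 h, against 9.52, 8.81 and 7.34 CPM in mock libraries. At 24 h MAKR4 had 6.64, 5.16 and 6.93 CPM with AtCEP5 and 5.16, 6.09 and 5.43 CPM with mock. The groups overlapped at every time, and the averaged log2 fold change was -0.13 ± 0.11 (95% interval -0.38 to 0.11, adjusted p = 0.419). Of the 10 genes, 6 had an AtCEP5 mean below the mock mean at all 3 times (LBD29, GATA23, PUCHI, LRP1, PLT7 and ACR4), 3 at 2 times (LBD18, PLT5 and MAKR4) and LBD16 at 1 time. The share of all genes tested with such means was not computed, so these counts have no background to be judged against.

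**Figure D2:**
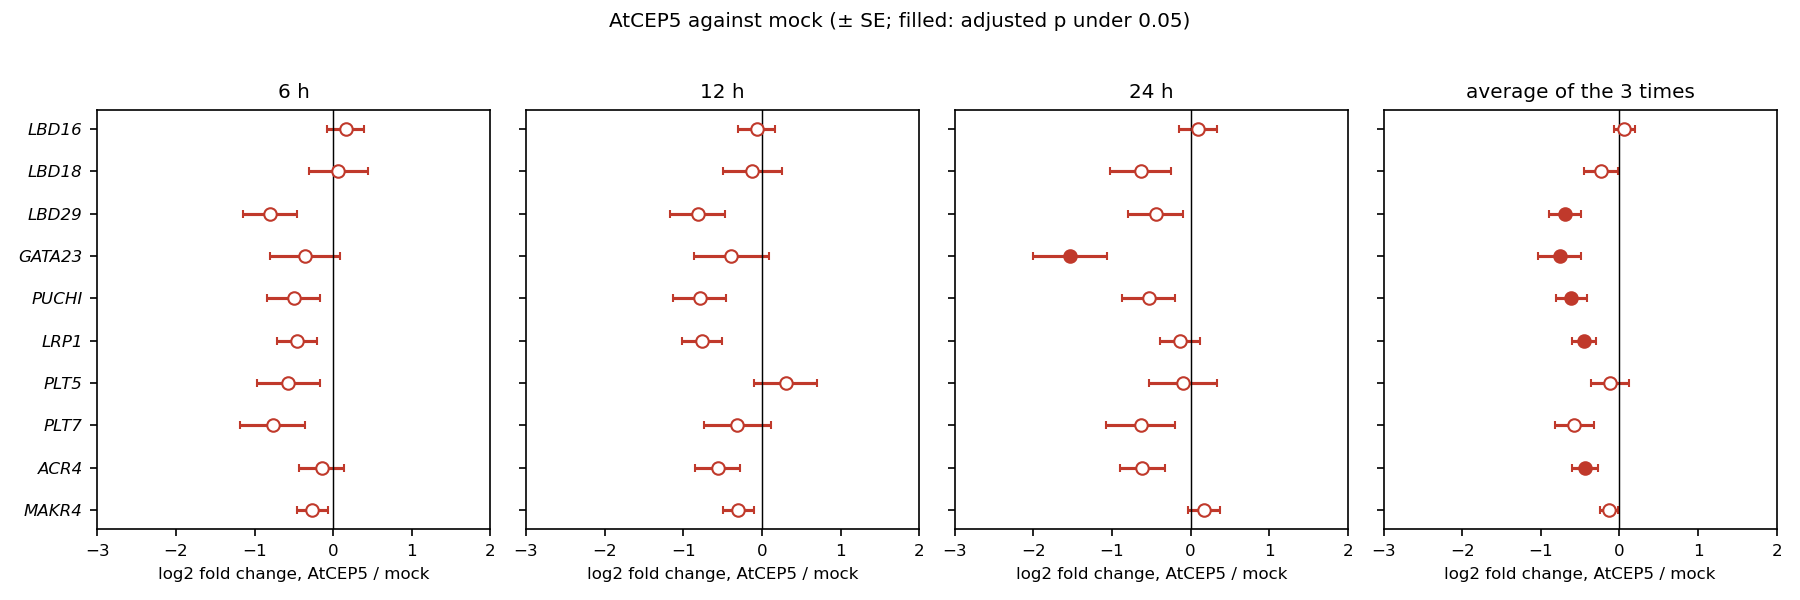
Log2 fold change of AtCEP5 against mock for the 10 genes at 6, 12 and 24 h and averaged over the times, with bars of ± SE and filled points for an adjusted p under 0.05. The averages of LBD29, GATA23, PUCHI, LRP1 and ACR4, from -0.76 to -0.44, are filled, and that of LBD16 is 0.06.

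No change of the AtCEP5 effect over time was called for any of the 10 genes. In edgeR 0 of 10 passed for each of the 3 differences between times, with 0 at an unadjusted p under 0.05, and DESeq2 and limma called 0. Of all genes tested, 0.00502%, 0.0100% and 0.0150% passed for 12 h minus 6 h, 24 h minus 6 h and 24 h minus 12 h. For GATA23 the effect at 24 h minus that at 6 h was -1.17 ± 0.65 on the log2 scale (95% interval -2.57 to 0.22). The separate values of GATA23 at the 3 times are thus not shown to differ.

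The second comparison set each treated group against roots before treatment. The AtCEP5 and mock comparisons share the 3 libraries before treatment, so their values are given side by side. GATA23 fell in roots of 5 of the 6 treated groups. It had 6.60, 3.51 and 6.06 CPM before treatment, and the 18 treated libraries, whose values are given above, reached 3.51 CPM or more only in mock 6 h replicate 3 and mock 24 h replicate 1. With AtCEP5 the log2 fold change of GATA23 was -1.49 ± 0.42 at 6 h (adjusted p = 0.0111), -2.17 ± 0.45 at 12 h (adjusted p = 0.00118) and -2.43 ± 0.46 at 24 h (adjusted p = 0.000408), a fold of 0.185. With mock it was -1.13 ± 0.42 at 6 h (adjusted p = 0.0361), -1.78 ± 0.43 at 12 h (adjusted p = 0.00241) and -0.90 ± 0.41 at 24 h (adjusted p = 0.0900). The values with AtCEP5 at 12 and 24 h and with mock at 12 h passed in each of 15 alternatives. The call with AtCEP5 at 6 h was lost without AtCEP5 6 h replicate 1 (-1.32, adjusted p = 0.0617). The call with mock at 6 h was lost without before treatment replicate 1 or 3 or mock 6 h replicate 1 or 2, with adjusted p between 0.0933 and 0.147, and that with mock at 24 h was gained without before treatment replicate 2 or mock 24 h replicate 1 (-1.31, adjusted p = 0.0280). Without before treatment replicate 3, the library with the leaf transcript, the log2 fold change of GATA23 with AtCEP5 was -1.40 at 6 h, -2.07 at 12 h and -2.35 at 24 h.

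Few other members differed from roots before treatment. LBD29 had 3.22, 3.51 and 4.09 CPM before treatment, above every AtCEP5 library. Its log2 fold change with AtCEP5 was -0.86 ± 0.34 at 6 h (adjusted p = 0.0623), -1.05 ± 0.35 at 12 h (adjusted p = 0.0312) and -0.87 ± 0.34 at 24 h (adjusted p = 0.0621), beside -0.06 ± 0.33, -0.23 ± 0.32 and -0.42 ± 0.33 with mock at the same times. The call of LBD29 at 12 h was lost without before treatment replicate 2 or 3 or AtCEP5 12 h replicate 2 or 3, with adjusted p between 0.0568 and 0.187, and without AtCEP5 replicate 2 the log2 fold change was -0.68. LBD18 had 3.94, 3.44 and 3.86 CPM before treatment, and every treated library was lower. Its log2 fold change was -0.63 ± 0.36, -0.82 ± 0.36 and -1.27 ± 0.38 with AtCEP5 at 6, 12 and 24 h, with the last past the threshold (adjusted p = 0.0149), and -0.69 ± 0.36, -0.70 ± 0.36 and -0.63 ± 0.36 with mock. Without AtCEP5 24 h replicate 3 the value of LBD18 at 24 h was -0.94 (adjusted p = 0.0739). ACR4 had 2.66, 3.86 and 3.54 CPM before treatment and rose with mock at 24 h (log2 fold change 0.74 ± 0.28, adjusted p = 0.0452), a call lost without mock 24 h replicate 2 or 3 or any library before treatment, with adjusted p between 0.0503 and 0.242. Its value with mock at 12 h passed without mock 12 h replicate 1 (0.78, adjusted p = 0.0462). The value of PLT5 with AtCEP5 at 24 h passed without before treatment replicate 1 (-1.16, adjusted p = 0.0496).

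Counted over the list, 1, 2 and 2 of 10 genes passed with AtCEP5 at 6, 12 and 24 h, all lower, where 27.7%, 23.7% and 28.0% of all genes tested passed and 14.6%, 13.2% and 15.2% were called lower. With mock 1 of 10 passed at each time, lower at 6 and 12 h and higher at 24 h, where 38.7%, 37.4% and 35.1% of all genes tested passed, 20.5% and 19.7% lower at 6 and 12 h and 16.6% higher at 24 h. These counts of members are near or below the share of all genes. Groups that did not overlap with the libraries before treatment were found for 4, 4 and 3 of the 10 genes with AtCEP5 at 6, 12 and 24 h, where 41.8%, 35.3% and 39.7% of all genes tested did not overlap. With mock they were found for 3, 2 and 2 of the 10, where 45.6%, 48.0% and 39.7% of all genes did not overlap.

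**Figure D3:**
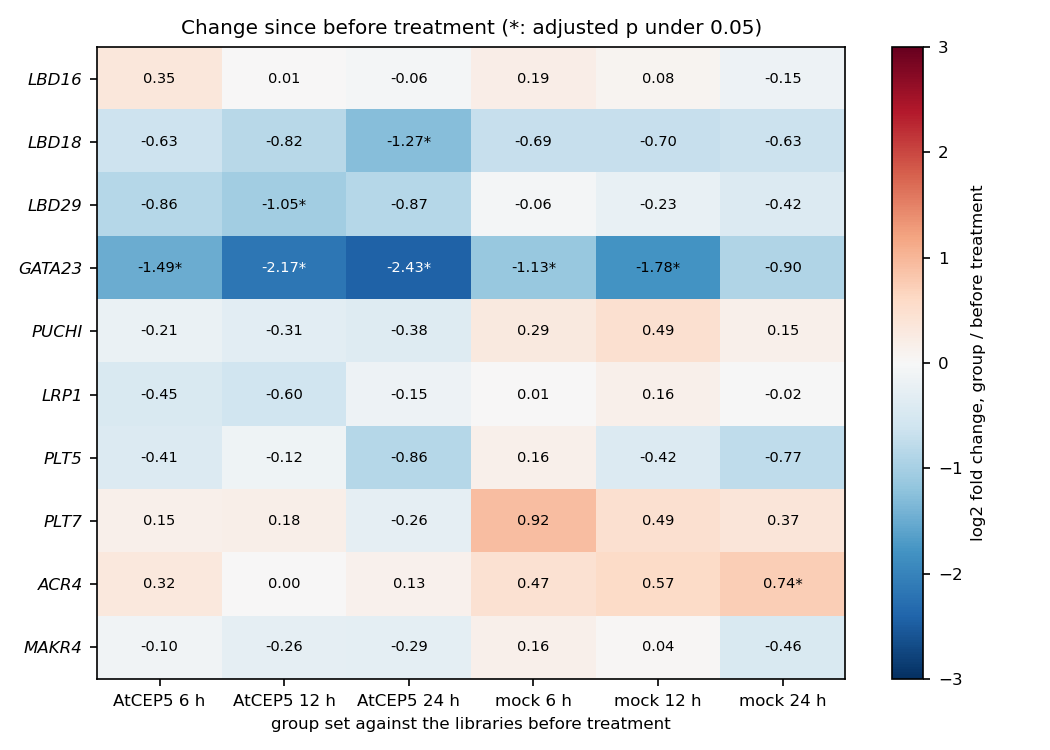
Heat map of the log2 fold change of each of the 10 genes (rows) in AtCEP5-treated and mock-treated roots at 6, 12 and 24 h (columns) against roots before treatment, with the value in each cell and an asterisk for an adjusted p under 0.05. GATA23 is the lowest gene in every column, at -2.43 with AtCEP5 and -0.90 with mock at 24 h.

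The other genes of the pathway were taken from a list of 40, of which 38 were tested. That list, too, was chosen with earlier results of these data known, so its counts are a description. In AtCEP5 against mock, 1 was called higher and 4 lower at 6 h, 0 higher and 7 lower at 12 h, and 1 higher and 4 lower at 24 h. Beside the 0, 2 genes were higher at 12 h at an unadjusted p under 0.05, and DESeq2 and limma called 0 higher. Averaged over the times, 2 were called higher and 9 lower, and the median log2 fold change of the 38 genes was -0.20. These 11 of 38 genes stand beside 30.3% of all genes tested called for the average, and the 9 lower ones beside 15.5%, so the count in either direction is near the share of all genes. At 6, 12 and 24 h the 5, 7 and 5 genes called stand beside 11.3%, 12.1% and 7.81%. LBD14, an LBD gene related to LBD16 and LBD29, had 2.05, 1.63 and 2.79 CPM in AtCEP5 libraries at 24 h, against 5.86, 4.53 and 5.36 CPM in mock libraries. At 12 h it had 2.39, 1.37 and 2.01 CPM with AtCEP5, against 3.88, 4.73 and 3.57 CPM with mock. These groups were separate at both times. The log2 fold change of LBD14 was -0.55 ± 0.33 at 6 h (adjusted p = 0.327), -1.08 ± 0.34 at 12 h (adjusted p = 0.0380) and -1.27 ± 0.33 at 24 h (adjusted p = 0.0165). Its call at 12 h was lost when any of the 6 libraries was left out, with adjusted p between 0.0546 and 0.192. The call at 24 h was lost without AtCEP5 24 h replicate 1 or 2 or mock 24 h replicate 1, with adjusted p between 0.0615 and 0.0983, and without mock 6 h replicate 3 the log2 fold change of LBD14 at 6 h was 0.11 (adjusted p = 0.890). The averaged value of -0.97 ± 0.19 passed in all 27 alternatives.

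EXPA14, an expansin, one of the proteins that loosen cell walls, had 43.3, 40.3 and 37.7 CPM in AtCEP5 libraries at 6 h, against 77.8, 77.2 and 82.5 CPM in mock libraries. Its log2 fold change was -0.97 ± 0.19 at 6 h, -1.14 ± 0.19 at 12 h and -0.70 ± 0.19 at 24 h, and its libraries did not overlap at any time. The call of EXPA14 at 24 h was lost without AtCEP5 24 h replicate 1 or 2 or mock 24 h replicate 1 or 2, with adjusted p between 0.0573 and 0.143. IAA14 fell at each time, with log2 fold changes of -1.20, -1.39 and -1.18 at 6, 12 and 24 h, and so did AT5G66815, with -4.15, -3.60 and -3.96. AT5G66815 was the lowest of the 38 genes for the average, at -3.90 ± 0.20. It is given by its locus because the annotation used here has no other symbol for it. The pathway list, written by hand, names it CEP5. At 6 h it had 1.23, 1.33 and 0.434 CPM in AtCEP5 libraries, against 19.2, 16.4 and 17.3 CPM in mock libraries. The other pathway genes that passed for the average were picked out after their values were seen. Among auxin genes they were IAA28, the repressor upstream of GATA23 (-0.64 ± 0.14), IAA12 (-0.24 ± 0.08), the auxin receptor gene TIR1 (0.41 ± 0.08) and the auxin influx carrier genes LAX3 (-0.40 ± 0.07) and AUX1 (-0.39 ± 0.08). The remaining ones were CRF2, a cytokinin response factor (-0.71 ± 0.16), and WOX5, a homeobox gene of the quiescent centre (0.42 ± 0.14). The averaged call of WOX5 was lost without replicate 2 of either treatment at 6 h or at 24 h, with adjusted p between 0.0520 and 0.0657. That of IAA12 was lost for most single libraries left out, with adjusted p up to 0.0889. By role the averaged calls covered 4 of 8 tested genes of the auxin response module, 2 of 4 auxin carriers, 1 of 9 relatives of the members, 2 of 7 genes of founder cell division and patterning, 1 of 6 genes of emergence and 1 of 4 negative regulators of lateral root number, where 30.3% of all genes tested were called.

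**Figure D4:**
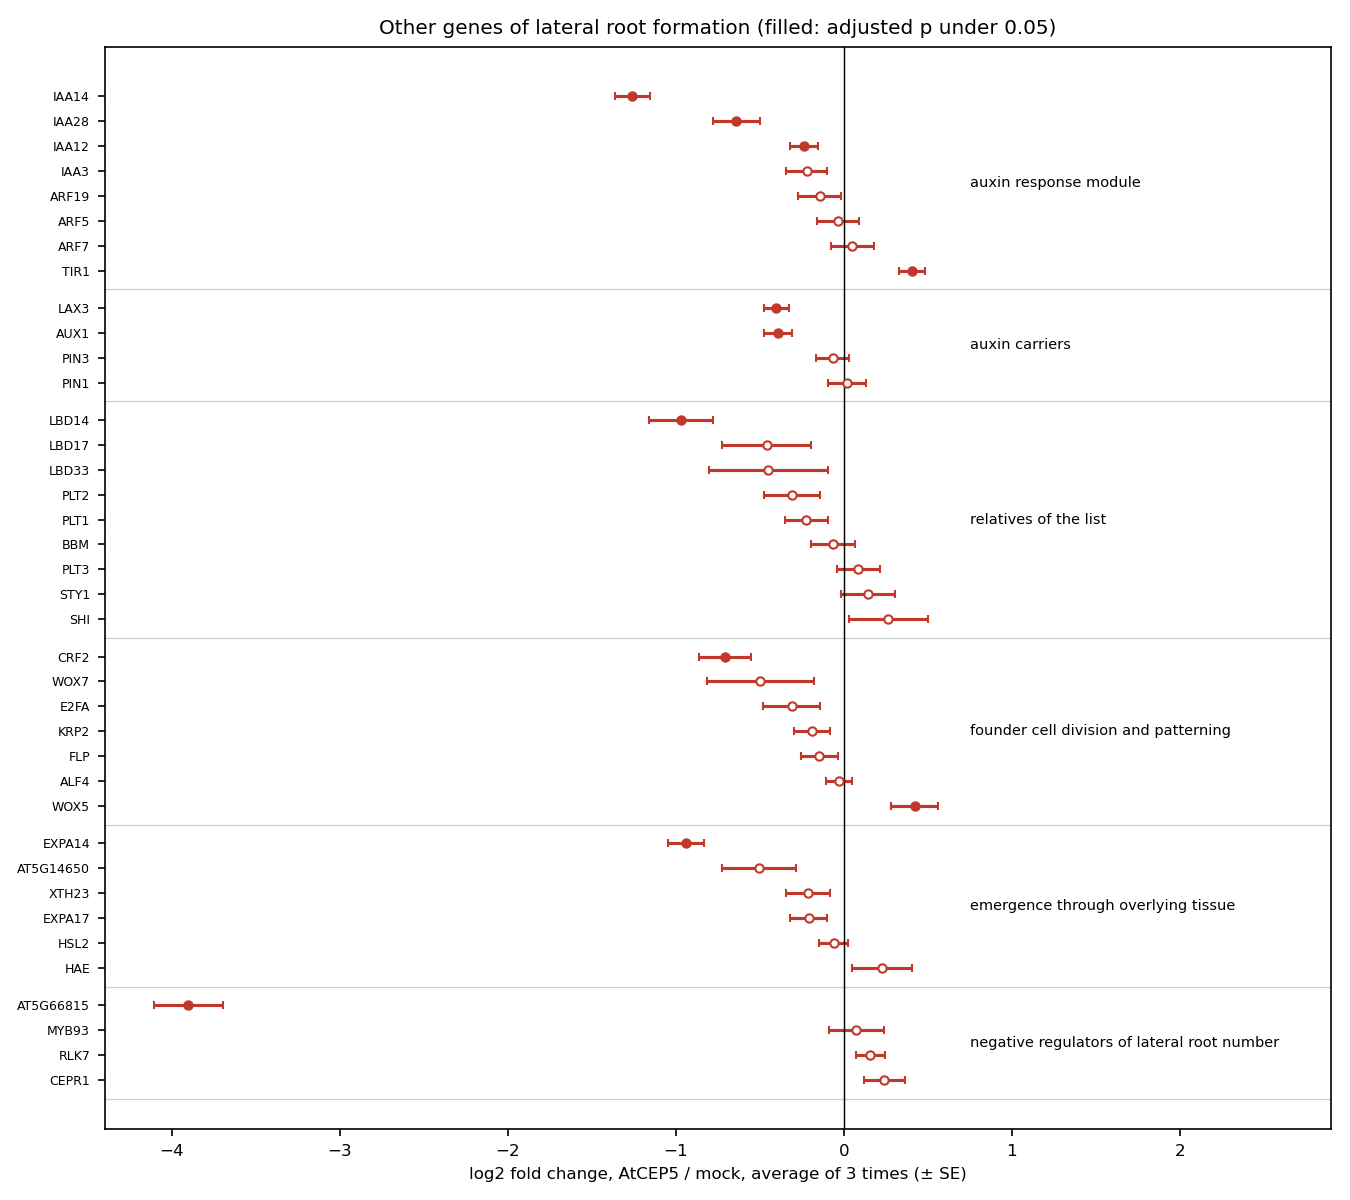
Averaged log2 fold change of AtCEP5 against mock, with bars of ± SE, for the 38 tested genes of the pathway list, grouped by role, with filled points for an adjusted p under 0.05. AT5G66815 is the lowest at -3.90, followed by IAA14 at -1.26, LBD14 at -0.97 and EXPA14 at -0.94, and TIR1 at 0.41 and WOX5 at 0.42 lie above 0.

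GATA23, LBD18 and PLT7 varied most among the 10 over the 7 group means of log2 CPM, with ranges of 2.26, 1.30 and 1.08. LBD16 varied least, with 0.50. These ranges include the spread between libraries, and PLT7, with 4 to 27 counts in a library, passed in none of the comparisons. Nearest profiles were sought only among tested genes that had a symbol. Of these, the genes whose 7 centred group means were nearest to those of GATA23 were CYCP3;2 and IGMT2. Their root mean square differences were 0.200 and 0.224 on the log2 scale. Nearest to LBD18 were PER4 (0.0877) and MAPKKK16 (0.120), and nearest to PLT7 were EIF3G2 (0.0703) and GAMMA-H2AX (0.0730).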

How the data were processed

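Poly-A RNA of Arabidopsis roots was measured in 21 libraries, grouped by the treatment and time in the labels. Gene counts and FPKM values were deposited by the authors in separate tables. Per the labels, TRIzol extraction and DNase treatment preceded library making with a TruSeq RNA kit. The submitters' processing notes name STAR 2.7.8a, StringTie 2.1.3 and HTSeq. Neither the genome build nor the use of strand in counting is given in the sources used here. All 461492 nonzero FPKM values, as deposited by the authors, exceeded those recomputed from the counts by a factor of 10 (relative tolerance 1e-06) and were divided by it.

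The deposited counts entered edgeR 4.0.16 (R 4.3.3) for its quasi-likelihood test, with TMM factors and filterByExpr, and all 7 groups shared a fit that left 14 residual degrees of freedom. Benjamini-Hochberg adjustment covered the 19938 genes tested, and an adjusted p under 0.05 was a call. Log2 fold changes are the first group named minus the second, and 95% intervals are not adjusted. CPM are counts scaled with TMM factors. The code was tested on simulated data. Alternatives were other scaling and filters, a replicate block, smaller fits, leaving out libraries, DESeq2 1.42.0, and limma 3.58.1 on log2(FPKM + 1) or log2(FPKM + 0.1). Deviations of same-numbered AtCEP5 and mock libraries from their group means correlated at 0.182, 0.117 and 0.241 at 6 h. Each of these was over the minimum of 0.1. No pair reached it at 12 h (0.0301, -0.0495 and 0.0296) or at 24 h (-0.194, 0.0919 and -0.140).

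All 10 genes were named whatever their p. Genes of the pathway list were named where they passed at 2 or more times. For the 3 genes with the largest range of group means, the 2 nearest profiles among tested genes with a symbol were given. The 10 genes, the pathway list and the markers were chosen with earlier results of these data known. Coordinates and sequences are from RefSeq TAIR10.1, in which 32532 of the 32833 genes of the table had the same start and end, the 10 genes among them.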

Additional observations from a re-analysis of the deposited data

How the results depend on the processing

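No result turned its direction with a call in any alternative. Counts of the 10 genes called in AtCEP5 against mock changed as follows. At 6 h, 1 gene was called instead of 0 in the fit of the 6 libraries with a replicate block, chosen after seeing the data. At 12 h, 1 was called instead of 0 without the low-count filter, with that replicate block and with DESeq2, and 0 to 1 when a library was left out. At 24 h, 0 were called instead of 1 in the fit of only the groups compared, with and without the replicate block, and without both libraries high in ribosomal RNA, and 0 to 1 when a library was left out. For the average, 2 were called instead of 5 with limma at both pseudocounts, and 2 to 5 when a library was left out. Adding the block to the fit of 21 libraries ended the averaged call of ACR4 (-0.41, adjusted p = 0.0560). Without both libraries high in ribosomal RNA the averaged calls of LBD29, GATA23, PUCHI and LRP1 held and that of ACR4 did not (adjusted p = 0.0856).

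Against before treatment, AtCEP5 at 6 h gave 2 instead of 1 with only the groups compared and with limma at a pseudocount of 1, and 0 to 1 with a library left out. AtCEP5 at 12 h gave 1 instead of 2 with only the groups compared and without the libraries high in ribosomal RNA, and 1 to 2 with a library left out, and AtCEP5 at 24 h gave 1 to 3. Mock at 6 h gave 0 instead of 1 without the libraries high in ribosomal RNA and 0 to 1 with a library left out, mock at 12 h gave 1 to 2, and mock at 24 h gave 0 instead of 1 with only the groups compared, without the libraries high in ribosomal RNA and with limma at both pseudocounts, and 0 to 2 with a library left out. The cause was not tested.

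Over all genes, the block fit called 4802 instead of 2247 at 6 h and 600 instead of 1558 at 24 h, where fitting only the groups compared called 897. That smaller fit called 2909 instead of 4718 for AtCEP5 at 12 h and 4285 instead of 6996 for mock at 24 h against before treatment. Leaving out a library took the counts in AtCEP5 against mock as low as 1234 at 6 h, 1443 at 12 h and 980 at 24 h. Differences between times were called for 1, 2 and 3 genes and for at most 16, with DESeq2. Of the pathway list, 3 to 10 genes were called at 6 h instead of 5, 3 to 8 at 12 h instead of 7, and 2 to 7 at 24 h instead of 5. At 12 and 24 h no pair of same-numbered libraries reached the minimum correlation of 0.1. A gene with 4 to 27 counts in a library, as PLT7, had a standard error of 0.42 to 0.44 on the log2 scale for AtCEP5 against mock at a single time.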
